A study of Homo sapiens with 48 samples.

Results

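FAP, THY1, PDPN, NT5E, ENG, PDGFRA, PDGFRB, ICAM1, VCAM1 and TWIST1 are genes by which fibroblasts and their activated states are commonly recognized. They were taken by matching their symbols, with no measured value in the rule, and all 10 were found among the 29744 genes of the deposited table of estimated counts. These genes, and the gene lists used further below, were nevertheless chosen with earlier results of these data known. Their expression was followed in IL11mNG fibroblasts, an immortalized human fibroblast line (CRL-4001) carrying mNeonGreen, a fluorescent protein, as a reporter of IL11. Single-cell clones of the edited line were sorted for mNeonGreen before Cas9 or dCas9–VP64 was added, and whether both arms came from the same clone is not given in the sources used here. Cells of the CRISPRko arm carried Cas9 with a lentiviral non-targeting guide RNA (H47_Ctrl) or a GLIS3 guide RNA (H47_KO). Cells of the CRISPRa arm carried dCas9–VP64, a catalytically inactive Cas9 joined to the activator VP64, and are named here by their descriptions, VP64_Ctrl and VP64_A. Their titles read the reverse, naming the libraries described as VP64_A as the control, and the descriptions are used because they match the names in the count table. GLIS3, the target of the activating guide, ranged from 16.6 to 36.7 CPM in VP64_A by description and from 1.91 to 6.31 in VP64_Ctrl, with no overlap, so the targeted gene goes with the descriptions and against the titles. All 4 were puromycin- and blasticidin-selected bulk populations, and in H47_KO single cells could carry different edits. All 4 were given TGFβ and IL-1β together (10 ng per ml each) for 0, 6, 12 or 24 h. With 3 libraries in each of 16 conditions, 48 libraries were sequenced, 24 in each arm and 12 in each group of cells.

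These genes cover several roles on the stromal cell surface. FAP is a surface serine protease that is associated with activated fibroblasts, and THY1 (CD90) and PDPN are surface glycoproteins used to mark stromal cells. NT5E (CD73) turns extracellular AMP into adenosine, ENG (CD105) is a co-receptor for ligands of the TGFβ family, and PDGFRA and PDGFRB are the receptor tyrosine kinases for platelet-derived growth factors. ICAM1 and VCAM1 are adhesion molecules that bind leukocyte integrins and are well-known targets of NF-κB, the Rel family of transcription factors that IL-1β activates. TWIST1 is a basic helix-loop-helix transcription factor of mesenchymal cells.

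Library depth, as the sum of estimated counts, ran from 2321990 to 10661004. TMM scaling factors, which correct a library's total for its composition, lay between 0.681 and 1.34 in 45 libraries and at 1.84 in VP64_Ctrl 0 h replicate 3, 1.51 in H47_KO 24 h replicate 3 and 1.503 in H47_KO 0 h replicate 3. In these 3 libraries the 50 most abundant genes took 23.1% to 31.4% of the counts, against 32.6% to 46.4% in the other 45, and results that rest on them are given with and without them. GLIS3, the targeted gene, had 1 to 21 counts in H47_KO libraries against 6 to 45 in H47_Ctrl. Its log2 fold change was -2.55 (SE 0.56, adjusted p = 0.0355) at 0 h, and -1.80, -1.21 and -1.17 at 6, 12 and 24 h, not called. It had 71 to 271 in libraries described as VP64_A against 6 to 32 in VP64_Ctrl, called at all 4 times. The 6 fibroblast markers (COL1A1, COL1A2, COL3A1, DCN, LUM and VIM) were detected in every group of cells and summed to 9523 to 59806 CPM (counts on a common library size after TMM scaling). Endothelial, leukocyte and melanocyte markers summed to at most 1.497, 2.21 and 1.04 CPM, with KDR, LYZ, CD3E and TYR at 0 in all 48 libraries. These were bulk libraries, in which fewer cells of a type and less RNA per cell cannot be told apart.

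ICAM1 and VCAM1 are both adhesion molecules and NF-κB targets, yet ICAM1 rose more than any other tested member and VCAM1, like PDPN, had no count. The sequences upstream of the starts of ICAM1 and VCAM1 are shown for that reason. Both are from RefSeq (GRCh38.p14, plus strand, read 5′ to 3′), with every match to GGNNNTTCC, a core of the Rel motif, on either strand in capitals. A Rel site that departs from this pattern would stay in lower case. The VCAM1 window is chr1:100719492-100719741, the 250 bases before the RefSeq start. The ICAM1 window is chr19:10270870-10271092, 223 bases that stop 27 bases before the RefSeq start, at the earlier GENCODE start.
VCAM1: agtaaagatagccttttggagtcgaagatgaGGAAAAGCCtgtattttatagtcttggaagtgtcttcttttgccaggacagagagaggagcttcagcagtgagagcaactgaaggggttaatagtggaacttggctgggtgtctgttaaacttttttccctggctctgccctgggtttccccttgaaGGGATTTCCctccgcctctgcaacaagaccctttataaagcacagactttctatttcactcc
ICAM1: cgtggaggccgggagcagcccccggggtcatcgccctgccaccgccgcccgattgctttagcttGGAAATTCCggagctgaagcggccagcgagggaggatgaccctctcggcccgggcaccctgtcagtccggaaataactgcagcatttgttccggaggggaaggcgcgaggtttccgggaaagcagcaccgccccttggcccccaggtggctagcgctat
VCAM1 held 2 matches, 219 to 211 and 62 to 54 bases before its RefSeq start. ICAM1 held 1, 186 to 178 bases before its RefSeq start, which lies 27 bases past the end of the printed sequence. There the pattern fits on both strands. Of 35116 windows of 250 bases before RefSeq starts, 17.1% held a GGNNNTTCC match, so a match is common. NT5E and ENG held 1 match each, and PDGFRA, PDGFRB and PDPN none. A loose form of the AP-1 motif, TGANTCA with any base at N, was found in 6.57% of windows. It matched once, as TGAATCA, in 1 of 2 windows of PDGFRA, 32 to 26 bases before that start. The TEAD motif GGAATG (11.9% of windows) and the GLIS motif TGGGGGGT (1.33%) matched no window of these 7 genes. FAP, THY1 and TWIST1 were not matched to a window. Each match describes letters, not a measured site.

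The level of each gene was compared with the others on the TPM scale, which takes transcript length into account. At 0 h in H47_Ctrl, THY1 stood first at 1159 ± 22.8 TPM (SD, n = 3), followed by NT5E at 151 ± 5.51, ENG at 67.7 ± 5.89, FAP at 66.9 ± 7.04, PDGFRB at 30.1 ± 1.03 and PDGFRA at 13.9 ± 2.26. ENG and FAP overlapped there, as did ICAM1 (1.09 ± 0.588 TPM) and TWIST1 (0.995 ± 0.274), while the other neighbours in this order did not overlap. THY1 was first in all 16 conditions, and its mean ranged from 481 TPM in VP64_A at 24 h to 1274 in H47_KO at 6 h. ICAM1 changed its place most. It was among the 2 lowest detected members at 0 h in each group of cells and reached 172 ± 38.4, 174 ± 9.22, 265 ± 15.5 and 193 ± 12 TPM at 6 h in H47_Ctrl, H47_KO, VP64_Ctrl and VP64_A. At 6 h its libraries overlapped those of NT5E in the CRISPRko arm and lay above them in the CRISPRa arm.

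**Figure D1:**
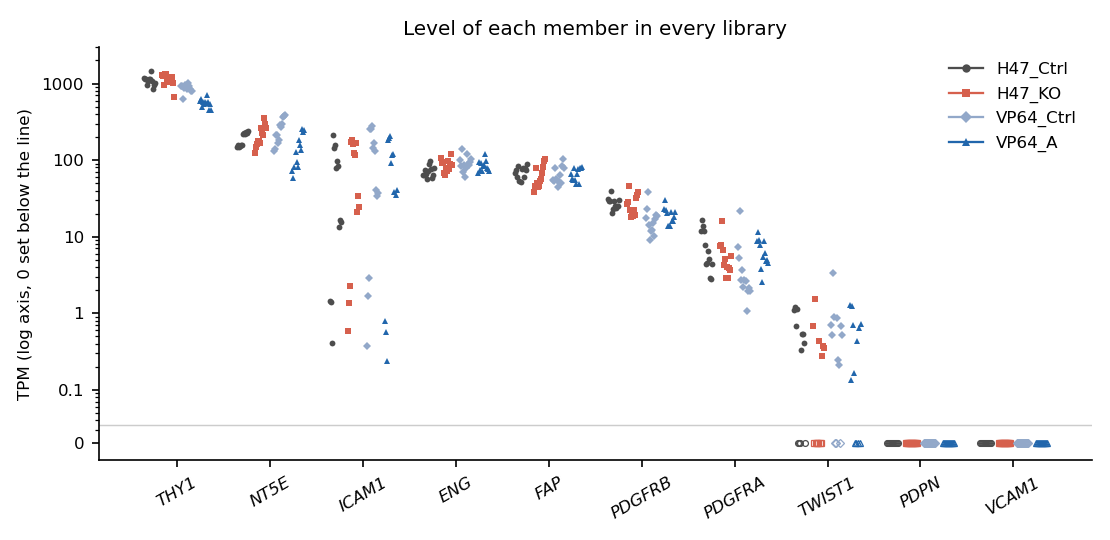
Level of each of the 10 genes in the 48 libraries, in TPM on a log axis, with one point for each library and open symbols under the line for libraries at 0. THY1 is highest throughout, ICAM1 runs from below 1 TPM to over 100, TWIST1 stays at or below 3.37 TPM, and PDPN and VCAM1 are at 0 in all 48 libraries.

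PDPN (chr1:13583465-13617957, plus strand on GRCh38, by the GENCODE v44 annotation) and VCAM1 (chr1:100719742-100739045, plus strand) had 0 counts in all 48 libraries, at rest and at each time with TGFβ and IL-1β. A count of 0 in a single library allows up to 0.281 to 1.29 CPM, depending on its depth, and 0 counts over all 48 libraries together allows up to 0.0118 CPM, for counting error only. They are among 11079 of the 29744 genes in the table (37.2%) with 0 counts throughout. TWIST1 (chr7:19020991-19117636, minus strand, overlapped by a lncRNA on the opposite strand) had 120 counts in all and 0 to 12 in a library, with 17 libraries at 0. It was detected in 11 of the 12 libraries at 0 h, with 69 counts (0.864 CPM over the pooled libraries), in 4 of 12 at 6 h, with 13 counts (0.241 CPM), in 7 of 12 at 12 h, with 15 counts (0.262 CPM), and in 9 of 12 at 24 h, with 23 counts (0.364 CPM). The 0 h libraries thus held more TWIST1 counts than those of all later times together. PDPN, VCAM1 and TWIST1 did not pass the filter on low counts, and without the filter TWIST1 was called in no comparison, so the other 7 members carry the tests that follow.

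TGFβ and IL-1β raised ICAM1, NT5E and FAP and lowered PDGFRA. ICAM1 was called up in each of the 4 groups of cells at every time, and PDGFRA was called down in each except VP64_A at 12 h. NT5E was called up in each group except H47_Ctrl at 6 h, and FAP was called up at 24 h in all 4. The exceptions had point changes in the same direction that did not pass the test. ENG, THY1 and PDGFRB passed the test in 5 of their 36 comparisons with 0 h. A gene was called at an adjusted p under 0.05 by edgeR's quasi-likelihood test, with Benjamini-Hochberg adjustment over all 10962 genes tested in the CRISPRko arm or 10980 in CRISPRa. The study describes its cell culture experiments as having independent biological replicates, but the labels do not say which libraries came from separate cultures. The p-values measure the spread between these libraries. In H47_Ctrl, 2 of 7 members were called at 6 h (1 up, 1 down) where 15.9% of all genes tested were, 3 at 12 h (2 up) against 19.6%, and 4 at 24 h (3 up) against 10.3%. In H47_KO, 3 (2 up), 5 (3 up) and 4 (3 up) were called at 6, 12 and 24 h, against 23.9%, 27.4% and 15.8% of all genes. In VP64_Ctrl, 5 (4 up), 6 (5 up) and 4 (3 up) were called, against 28.8%, 26.8% and 16%. In VP64_A, 3 (2 up), 3 (all up) and 4 (3 up) were called, against 17.4%, 19.7% and 13.6%. The 3 times within a group of cells share their 0 h libraries. In the VP64_Ctrl cells, 15 of 21 member-by-time comparisons were called with all libraries and 9 without VP64_Ctrl 0 h replicate 3.

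ICAM1 (chr19:10271093-10286615, plus strand) gave the largest fold changes of the 7 tested members. It had 3 to 39 counts in each 0 h library, so it passed the filter mainly through the stimulated libraries. In H47_Ctrl it stood at 2.7, 2.74 and 0.81 CPM at 0 h, at 322, 343 and 386 at 6 h, at 161, 204 and 203 at 12 h and at 30.5, 40.2 and 31.9 at 24 h (replicates 1, 2 and 3). In H47_KO it stood at 1.41, 3.03 and 3.16 CPM at 0 h, at 431, 579.8 and 407 at 6 h, at 311, 254 and 391 at 12 h and at 46.9, 59.2 and 34.3 at 24 h. Every stimulated library of both groups lay above every 0 h library, and 6 h was higher than 24 h throughout. In VP64_Ctrl it stood at 0.662, 3.23 and 3.29 CPM at 0 h, at 566, 702 and 869 at 6 h, at 361, 334 and 378 at 12 h and at 89.3, 71 and 71 at 24 h. In VP64_A it stood at 1.63, 1.13 and 0.494 CPM at 0 h, at 366, 537 and 551 at 6 h, at 259, 229.9 and 354 at 12 h and at 99.5, 88.2 and 101 at 24 h. The order of times was the same in the CRISPRa arm, with 6 h highest, then 12 h, then 24 h, and no overlap between the libraries of 0 h and any later time.

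The fitted log2 fold changes of ICAM1 against 0 h were 7.25, 6.37 and 3.88 at 6, 12 and 24 h in H47_Ctrl (SE 0.30, 0.30 and 0.30), or 153-, 82.7- and 14.7-fold. They were 7.49, 6.92 and 4.13 in H47_KO, 8.27, 7.27 and 5.06 in VP64_Ctrl and 8.65, 7.87 and 6.32 in VP64_A, and the highest adjusted p among the 12 was 1.22e-11. From 6 to 24 h ICAM1 then fell, with log2 differences of -3.37 in H47_Ctrl, -3.36 in H47_KO, -3.20 in VP64_Ctrl and -2.33 in VP64_A, each called. In this comparison of 24 with 6 h, added after the values were seen, 3 of 7 members were called in H47_Ctrl (1 up) against 14.6% of all genes, 4 in H47_KO (1 up) against 24.2%, 3 in VP64_Ctrl (1 up) against 18.4% and 3 in VP64_A (2 up) against 12.5%. At 24 h ICAM1 was still 14.7-fold its 0 h level in H47_Ctrl and 80.2-fold in VP64_A. The genes ICAM4-AS1 and LIMASI lie on the strand opposite ICAM1, and the strand used in counting is not given in the sources used here, so their reads cannot be told apart from those of ICAM1.

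PDGFRA (chr4:54229280-54298245, plus strand, overlapping the readthrough gene ENSG00000282278 on the same strand) moved the other way. In H47_Ctrl it stood at 39.7, 62.3 and 55.1 CPM at 0 h, at 30.8, 34.6 and 21.6 at 6 h, at 15.1, 22.6 and 16.3 at 12 h and at 12.8, 13.1 and 19 at 24 h. In H47_KO it stood at 35.5, 32.5 and 43 CPM at 0 h, at 31.2, 22.3 and 18.7 at 6 h, at 12.9, 18.4 and 13.3 at 12 h and at 14.7, 10.0 and 16.6 at 24 h. All 18 stimulated libraries of the CRISPRko arm lay below all 0 h libraries of their own group, and in both groups the lowest mean was at 24 h. In VP64_Ctrl it stood at 23.4, 20.7 and 35.5 CPM at 0 h, at 12, 18.4 and 13.9 at 6 h, at 11.1, 9.85 and 6.54 at 12 h and at 8.83, 9.4 and 5.11 at 24 h. In VP64_A it stood at 36.2, 44 and 35.1 CPM at 0 h, at 30.2, 18.1 and 14.5 at 6 h, at 31.9, 30.3 and 28.1 at 12 h and at 26.1, 24 and 20.5 at 24 h. VP64_Ctrl showed the same order, whereas in VP64_A the lowest libraries were at 6 h and no library at 12 h was below 28 CPM.

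The log2 fold changes of PDGFRA at 6, 12 and 24 h were -0.84, -1.53 and -1.79 in H47_Ctrl (SE 0.21, 0.23 and 0.23, adjusted p = 0.00489, 7.2e-06 and 7.8e-07), -0.62, -1.31 and -1.38 in H47_KO (adjusted p = 0.0471, 3.29e-05 and 2.09e-05) and -0.84, -1.50 and -1.80 in VP64_Ctrl (adjusted p = 0.0116, 3.26e-05 and 2.97e-06). In these 3 groups of cells PDGFRA at 24 h was 3.46-, 2.6- and 3.49-fold lower than at 0 h. In VP64_A they were -0.87, -0.36 and -0.72 (adjusted p = 0.00835, 0.301 and 0.0376), so 12 h was not called, with a 95% interval of -0.81 to 0.09. The 12 and 24 h falls in H47_Ctrl, H47_KO and VP64_Ctrl were called without any one library. The 6 h call was lost in H47_Ctrl without H47_Ctrl_0h replicate 2 (log2 fold change -0.69, adjusted p = 0.0529) or without H47_Ctrl_6h replicate 3 (log2 fold change -0.65, adjusted p = 0.0606). In VP64_Ctrl it was lost without VP64_Ctrl_0h replicate 3 (log2 fold change -0.61, adjusted p = 0.0806) or without VP64_Ctrl_6h replicate 1 (log2 fold change -0.65, adjusted p = 0.0975), the first of these being a library with a high TMM factor. In H47_KO the 6 h call was lost without any one of H47_KO_0h replicate 1 or 3 or H47_KO_6h replicate 2 or 3 (log2 fold changes -0.65 to -0.43, adjusted p between 0.0672 and 0.261). DESeq2 did not make this H47_KO call either (-0.59, adjusted p = 0.0768). In VP64_A the 6 h call was lost without VP64_A_6h replicate 2 (log2 fold change -0.77, adjusted p = 0.0551) or without VP64_A_6h replicate 3 (log2 fold change -0.67, adjusted p = 0.0728), and the 24 h call without any one of VP64_A_0h replicate 1 or 2 or VP64_A_24h replicate 1, 2 or 3 (log2 fold changes -0.80 to -0.61, adjusted p between 0.0578 and 0.171). The limma test on log2(TPM + 1) made neither VP64_A call (6 h, -1.01, adjusted p = 0.0737, and 24 h, -0.89, adjusted p = 0.124) and not the 6 h calls in H47_Ctrl (-0.80, adjusted p = 0.139) and H47_KO (-0.79, adjusted p = 0.0562). From 6 to 24 h PDGFRA fell further with edgeR, with log2 differences of -0.95 in H47_Ctrl, -0.76 in H47_KO and -0.97 in VP64_Ctrl. On log2(TPM + 1), limma made none of these calls (-0.98, adjusted p = 0.0616, -0.23, adjusted p = 0.559, and -0.34, adjusted p = 0.536). Relative to the median of all genes on that scale these were -0.89, -0.76 and -0.65. The edgeR call in H47_Ctrl was lost without H47_Ctrl_24h replicate 1 (log2 fold change -0.82, adjusted p = 0.0521). The H47_KO call was lost without H47_KO_6h replicate 1 (log2 fold change -0.54, adjusted p = 0.174) or without H47_KO_24h replicate 2 (log2 fold change -0.62, adjusted p = 0.0789). The VP64_Ctrl call was lost without VP64_Ctrl_6h replicate 2 (log2 fold change -0.75, adjusted p = 0.116) or without VP64_Ctrl_24h replicate 3 (log2 fold change -0.73, adjusted p = 0.105). In VP64_A this difference was 0.15 (95% interval -0.33 to 0.63), not called.

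**Figure D2:**
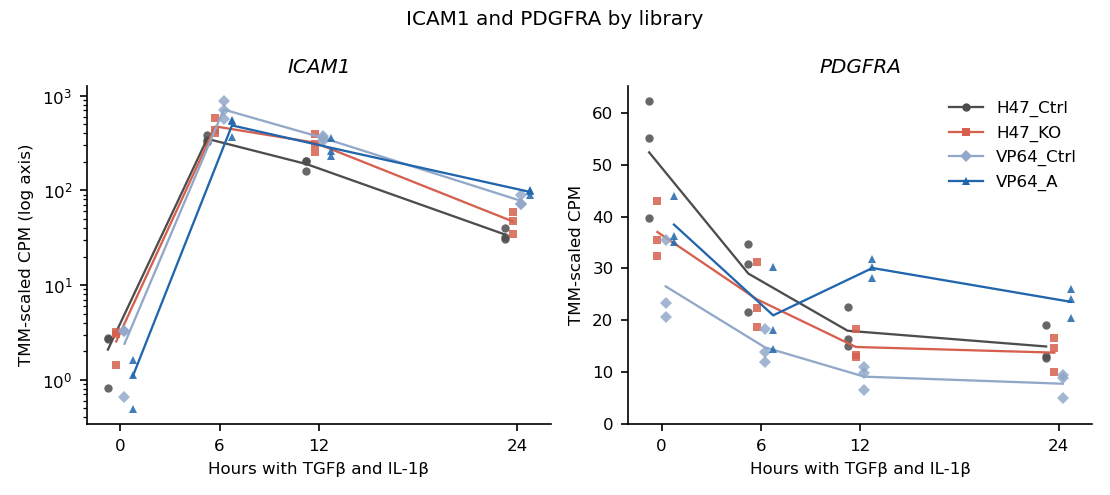
ICAM1 (log axis) and PDGFRA (linear axis) in TMM-scaled CPM against hours with TGFβ and IL-1β, with one point for each library and a line through the mean of the 3 libraries of each condition in each group of cells. ICAM1 peaks at 6 h in all 4 groups of cells, and PDGFRA falls towards 24 h in H47_Ctrl, H47_KO and VP64_Ctrl while VP64_A stays between 14.5 and 31.9 CPM after 0 h.

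NT5E (chr6:85449584-85495791, plus strand) was the member that rose most after ICAM1. In H47_Ctrl it stood at 344, 392 and 374 CPM at 0 h, at 292, 479 and 491 at 6 h, at 581, 599 and 676 at 12 h and at 665, 699 and 627 at 24 h, and in H47_KO at 385, 414 and 285 CPM at 0 h, at 564, 727 and 531 at 6 h, at 850.0, 628 and 631 at 12 h and at 984, 669.9 and 471 at 24 h. In VP64_Ctrl it stood at 294, 339 and 315 CPM at 0 h, at 587, 592 and 719 at 6 h, at 904, 686 and 1078 at 12 h and at 1022, 986 and 931 at 24 h, and in VP64_A at 192, 146 and 220.3 CPM at 0 h, at 321, 336 and 278 at 6 h, at 672, 393 and 506 at 12 h and at 868, 737 and 807 at 24 h. The 12 and 24 h libraries lay above the 0 h libraries in every group of cells, and at 6 h only those of H47_Ctrl overlapped with 0 h. Log2 fold changes at 6, 12 and 24 h were 0.18, 0.74 and 0.84 in H47_Ctrl (adjusted p = 0.674, 0.0205 and 0.0143), 0.75, 0.96 and 0.97 in H47_KO (0.0174, 0.00201 and 0.00292), 1.00, 1.49 and 1.63 in VP64_Ctrl (3.23e-04, 8.92e-07 and 2.47e-07) and 0.75, 1.49 and 2.11 in VP64_A (0.00838, 1.21e-06 and 1.78e-09). At 24 h NT5E was thus 1.79-, 1.96-, 3.1- and 4.32-fold its 0 h level. Calls in VP64_Ctrl, and those of H47_KO at 12 and 24 h and VP64_A at 12 and 24 h, were kept without any one library. The H47_Ctrl call was lost at 12 h without H47_Ctrl_0h replicate 1 (log2 fold change 0.69, adjusted p = 0.0847) or without H47_Ctrl_12h replicate 3 (log2 fold change 0.68, adjusted p = 0.0679), and at 24 h without H47_Ctrl_0h replicate 1 (log2 fold change 0.79, adjusted p = 0.0723) or without H47_Ctrl_24h replicate 2 (log2 fold change 0.79, adjusted p = 0.0614). The 6 h call was lost in H47_KO without H47_KO_0h replicate 3 (log2 fold change 0.64, adjusted p = 0.0763) or without H47_KO_6h replicate 2 (log2 fold change 0.63, adjusted p = 0.089) and in VP64_A without VP64_A_0h replicate 2 (log2 fold change 0.60, adjusted p = 0.0736). With limma on log2(TPM + 1) none of the 6 h calls was made, with 0.29, adjusted p = 0.1004 in H47_KO, 0.25, adjusted p = 0.231 in VP64_Ctrl and 0.50, adjusted p = 0.0711 in VP64_A, where the median of all genes was -0.43, -0.65 and -0.21. It made the 12 and 24 h calls in all 4 groups of cells. From 6 to 24 h NT5E rose by 1.37 (SE 0.20, adjusted p = 9.23e-06) in VP64_A and by 0.63 (SE 0.20, adjusted p = 0.0248) in VP64_Ctrl. The VP64_Ctrl call was lost without any one of VP64_Ctrl_6h replicate 1 or 2 or VP64_Ctrl_24h replicate 1, 2 or 3 (log2 fold changes 0.55 to 0.63, adjusted p between 0.0647 and 0.114). EdgeR did not call this rise in H47_Ctrl or H47_KO. On log2(TPM + 1), limma called it in H47_Ctrl (0.56, adjusted p = 0.00953) and H47_KO (0.78, adjusted p = 1.56e-04). It also called VP64_Ctrl (1.00, adjusted p = 1.56e-04) and VP64_A (1.31, adjusted p = 3.51e-06). Relative to the median of all genes there, these were 0.65, 0.26, 0.69 and 1.34.

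FAP (chr2:162170684-162245151, minus strand) rose by less. In H47_Ctrl it stood at 106, 122 and 98.9 CPM at 0 h, at 107, 107 and 108 at 6 h, at 133, 142 and 122 at 12 h and at 149.8, 152 and 152 at 24 h. In VP64_Ctrl it stood at 80.9, 86.1 and 77 CPM at 0 h, at 107, 126 and 115 at 6 h, at 107, 109 and 121 at 12 h and at 156, 179.8 and 127 at 24 h. In both control groups the 3 libraries at 24 h lay above those at 0 h. Its means in H47_KO were 86.4 ± 8.13, 106 ± 11.2, 117 ± 15.8 and 139.8 ± 16.8 CPM (SD, n = 3) at 0, 6, 12 and 24 h, and in VP64_A 103 ± 11.4, 125 ± 13.3, 135 ± 20.3 and 172 ± 4.39. At 24 h the log2 fold change of FAP was 0.47 (SE 0.14, adjusted p = 0.0257) in H47_Ctrl, 0.69 (SE 0.14, adjusted p = 5.15e-04) in H47_KO, 0.92 (SE 0.15, adjusted p = 2.21e-05) in VP64_Ctrl and 0.73 (SE 0.15, adjusted p = 5.27e-04) in VP64_A. The calls at 24 h in H47_KO, VP64_Ctrl and VP64_A were kept without any one library, and that of H47_Ctrl was lost without any one of H47_Ctrl_0h replicate 1 or 3 or H47_Ctrl_24h replicate 1, 2 or 3 (log2 fold changes 0.42 to 0.48, adjusted p between 0.0688 and 0.119). On log2(TPM + 1), limma kept the 24 h call in H47_KO (0.84, adjusted p = 0.0144) and lost it in H47_Ctrl (0.26, adjusted p = 0.618), VP64_Ctrl (0.53, adjusted p = 0.069) and VP64_A (0.43, adjusted p = 0.192). The median of all genes on that scale was 0.13 in H47_KO and -0.16, -0.32 and -0.22 in the others. Earlier calls were a rise of 0.51 at 6 h in VP64_Ctrl, lost without VP64_Ctrl_0h replicate 3 (log2 fold change 0.45, adjusted p = 0.0527) or without VP64_Ctrl_6h replicate 2 (log2 fold change 0.45, adjusted p = 0.0609), and rises at 12 h of 0.46 in VP64_Ctrl and 0.44 in H47_KO. The H47_KO call at 12 h was not made by limma on log2(TPM + 1) (0.17, adjusted p = 0.64). The first 12 h call was lost without any one of VP64_Ctrl_0h replicate 1 or 3 or VP64_Ctrl_12h replicate 3 (log2 fold changes 0.40 to 0.45, adjusted p between 0.0602 and 0.0843), and the second without any one of H47_KO_0h replicate 1 or 2 or H47_KO_12h replicate 3 (log2 fold changes 0.36 to 0.44, adjusted p between 0.0514 and 0.0988). From 6 to 24 h FAP rose by 0.50 (SE 0.14, adjusted p = 0.0148) in H47_Ctrl, 0.40 (SE 0.14, adjusted p = 0.0393) in H47_KO and 0.46 (SE 0.15, adjusted p = 0.0382) in VP64_A. The H47_Ctrl call was lost without any one of H47_Ctrl_6h replicate 1 or 3 or H47_Ctrl_24h replicate 2 (log2 fold changes 0.45 to 0.46, adjusted p between 0.0585 and 0.0638). The H47_KO call was lost without any one of H47_KO_6h replicate 1, 2 or 3 or H47_KO_24h replicate 1 or 2 (log2 fold changes 0.33 to 0.46, adjusted p between 0.0509 and 0.157). The VP64_A call was lost without any one of VP64_A_6h replicate 1, 2 or 3 or VP64_A_24h replicate 1, 2 or 3 (log2 fold changes 0.38 to 0.51, adjusted p between 0.0614 and 0.166). In VP64_Ctrl the difference was 0.41 (SE 0.15, adjusted p = 0.0551), called without VP64_Ctrl_24h replicate 3 (0.50, adjusted p = 0.0416). On log2(TPM + 1), limma called this rise in H47_KO (1.00, adjusted p = 0.00148) and VP64_Ctrl (0.76, adjusted p = 0.00933). It did not call H47_Ctrl (0.37, adjusted p = 0.399) or VP64_A (0.42, adjusted p = 0.289). Relative to the median of all genes there, these were 0.47, 0.45, 0.45 and 0.44. FAP was also called by edgeR at 6 h in H47_KO without the libraries with a high TMM factor (0.42, adjusted p = 0.0458), and was 0.29 (SE 0.14, adjusted p = 0.141) with them. At 12 h in VP64_A it was 0.39 (SE 0.15, adjusted p = 0.0649), and was called without VP64_A_0h replicate 1 (0.48, adjusted p = 0.0499) or without VP64_A_12h replicate 3 (0.47, adjusted p = 0.0484). On log2(TPM + 1) the signs of the VP64_Ctrl changes at 6 and 12 h turned (-0.24 and -0.15, neither called by limma), where the median of all genes was -0.65 and -0.51. A lncRNA, ENSG00000236841, overlaps FAP on the opposite strand.

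ENG (chr9:127815013-127854658, minus strand) rose at 12 h in the CRISPRa arm. Its means were 152 ± 23.8, 190.0 ± 18.4, 238 ± 20.01 and 183 ± 13.1 CPM (SD, n = 3) in VP64_A, in order of time, and 156 ± 8.87, 178 ± 40.5, 212 ± 27 and 180.5 ± 0.973 in VP64_Ctrl. The 12 h log2 fold change was 0.64 (SE 0.16, adjusted p = 0.00394) in VP64_A, kept without any one library, and 0.44 (SE 0.16, adjusted p = 0.0399) in VP64_Ctrl, lost without any one of VP64_Ctrl_0h replicate 1, 2 or 3 or VP64_Ctrl_12h replicate 2 or 3 (log2 fold changes 0.37 to 0.48, adjusted p between 0.057 and 0.156). In H47_Ctrl the 12 h difference was 0.52 (95% interval 0.10 to 0.94), its libraries not overlapping with 0 h but its adjusted p at 0.0856 (0.50, adjusted p = 0.0315, without the high TMM libraries of the arm), and in H47_KO it was -0.07 (95% interval -0.48 to 0.34). The VP64_A call was not made by limma on log2(TPM + 1) (0.35, adjusted p = 0.254). On this scale limma called falls of ENG at 6 h in VP64_Ctrl (-0.56, adjusted p = 0.0184) and H47_KO (-0.47, adjusted p = 0.0459), which were 0.09 and -0.04 relative to the median of all genes. There the VP64_Ctrl change of ENG at 12 h turned its sign (-0.16, not called by limma), where the median of all genes was -0.51. A lncRNA on the opposite strand and 2 small RNA genes on the same strand overlap ENG.

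THY1 (chr11:119415476-119424985, minus strand) had the highest TPM of these genes, and its changes moved with the libraries with a high TMM factor. In VP64_Ctrl it stood at 1185, 1271 and 514 CPM at 0 h, at 1396, 1866 and 2035 at 6 h, at 1506, 1476 and 1931 at 12 h and at 1367, 1177 and 1083 at 24 h, and in H47_KO at 2251, 2011 and 951 CPM at 0 h, at 2355, 3032 and 2041 at 6 h, at 1931, 1935 and 2016 at 12 h and at 1937, 1259 and 678 at 24 h. The lowest library of each of these groups, VP64_Ctrl 0 h replicate 3 and H47_KO 24 h replicate 3, was one with a high TMM factor. THY1 was called in VP64_Ctrl at 6 h, 0.83 (SE 0.24, adjusted p = 0.00945), and at 12 h, 0.73 (SE 0.24, adjusted p = 0.0242). Without VP64_Ctrl_0h replicate 3 these were 0.50 (adjusted p = 0.0775) and 0.39 (adjusted p = 0.181), and the 12 h call was also lost without VP64_Ctrl_12h replicate 3 (0.59, adjusted p = 0.116). Neither VP64_Ctrl call was made by limma on log2(TPM + 1) (0.18, adjusted p = 0.279 at 6 h and 0.20, adjusted p = 0.233 at 12 h). In H47_KO it was lower at 24 than at 6 h, -0.94 (SE 0.31, adjusted p = 0.0247), or -0.70 (adjusted p = 0.0527) without both H47_KO libraries with a high TMM factor. This call was lost without any one of H47_KO_6h replicate 2 or H47_KO_24h replicate 2 or 3 (log2 fold changes -0.92 to -0.66, adjusted p between 0.0624 and 0.145). From 6 to 24 h in VP64_Ctrl THY1 differed by -0.55 (SE 0.24, adjusted p = 0.116), and by -0.54 (adjusted p = 0.0327) without VP64_Ctrl 0 h replicate 3. H47_Ctrl ranged from 1024 to 2201 CPM and VP64_A from 753 to 1197 CPM, with no call against 0 h in either. THY1-AS1 and USP2-AS1 overlap it on the opposite strand.

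PDGFRB (chr5:150113839-150155872, minus strand) had 1 call against 0 h with edgeR and 4 with limma on TPM. It ranged from 87.6 to 114 CPM in H47_Ctrl, 82 to 128 in H47_KO, 45.2 to 81.3 in VP64_Ctrl and 67.3 to 111 in VP64_A. The edgeR call was a fall at 12 h in H47_KO, -0.43 (SE 0.13, adjusted p = 0.0132), lost without H47_KO_12h replicate 3 (log2 fold change -0.37, adjusted p = 0.0736). At 24 h the difference from 0 h was 0.06 (95% interval -0.20 to 0.31) in H47_Ctrl, -0.03 (95% interval -0.28 to 0.22) in H47_KO, -0.08 (95% interval -0.39 to 0.23) in VP64_Ctrl and -0.14 (95% interval -0.45 to 0.17) in VP64_A. PDGFRB was also lower at 6 h in VP64_A without the library with a high TMM factor of the arm (-0.46, adjusted p = 0.0339), and was -0.43 (SE 0.16, adjusted p = 0.057) with it. In VP64_Ctrl it was -0.38 (SE 0.16, adjusted p = 0.0792) at 6 h and -0.40 (SE 0.16, adjusted p = 0.0591) at 12 h. Without VP64_Ctrl_0h replicate 1 these were -0.52 (adjusted p = 0.0216) and -0.57 at 12 h (adjusted p = 0.0118). The 6 h fall was also called without VP64_Ctrl_6h replicate 3 (-0.50, adjusted p = 0.0396). On log2(TPM + 1), limma called falls in VP64_Ctrl at 6 h (-1.05, adjusted p = 0.00163) and 12 h (-0.96, adjusted p = 0.00465) and in H47_KO at 6 h (-0.68, adjusted p = 0.0282) and 12 h (-0.67, adjusted p = 0.0424). Relative to the median of all genes on that scale these were -0.40, -0.45, -0.25 and -0.42.

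**Figure D3:**
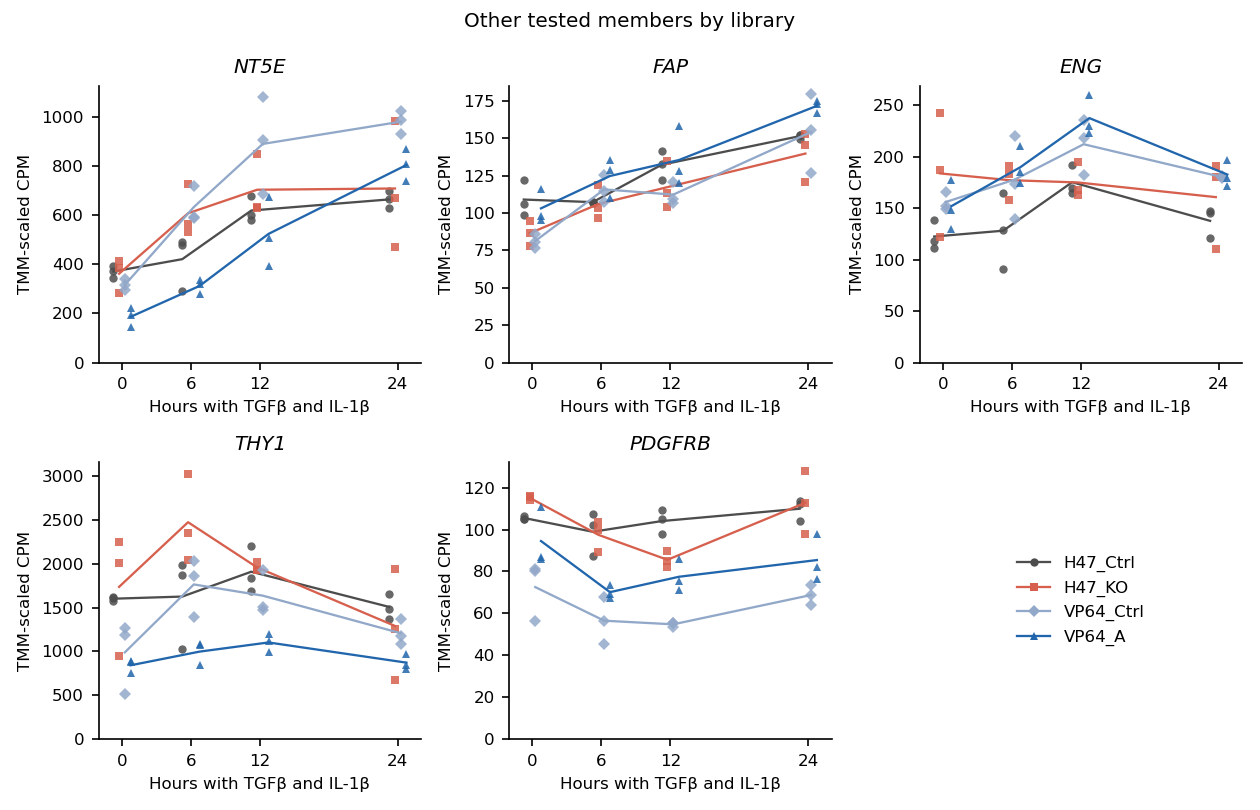
NT5E, FAP, ENG, THY1 and PDGFRB in TMM-scaled CPM against hours with TGFβ and IL-1β, with one point for each library and a line through the mean of the 3 libraries of each condition in each group of cells. NT5E and FAP are highest at 24 h in each group, ENG is highest at 12 h in VP64_A and VP64_Ctrl, and PDGFRB stays within 45.2 to 128 CPM.

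The GLIS3 guide changed no member past the threshold in the CRISPRko arm. With edgeR, 0 of 7 members were called between H47_KO and H47_Ctrl at any of the 4 times (0 h first), where 0.301%, 0.319%, 0.0821% and 0.21% of all genes tested were. At an unadjusted p under 0.05 the counts were 3, 3, 2 and 0. DESeq2 called 1 of the 28 comparisons, ICAM1 at 12 h, and limma on log2(TPM + 1) called 0. ICAM1 was higher in H47_KO by 0.75 (SE 0.20, adjusted p = 0.185) at 12 h, with libraries of 311, 254 and 391 CPM against 161, 204 and 203 in H47_Ctrl, and by 0.43 (SE 0.20, adjusted p = 0.411) at 6 h. The 2 groups did not overlap at either time, and DESeq2 gave an adjusted p of 0.0468 at 12 h. FAP was -0.34 (SE 0.14, adjusted p = 0.331) at 0 h, where its libraries did not overlap, and -0.12 (95% interval -0.39 to 0.16) at 24 h. ENG was 0.59 (SE 0.21, adjusted p = 0.238) at 0 h, and 0.79 (adjusted p = 0.0357) without the libraries with a high TMM factor, H47_KO 0 h replicate 3 among them. PDGFRA was -0.49 (95% interval -0.90 to -0.09) at 0 h and -0.08 (95% interval -0.56 to 0.40) at 24 h. NT5E, THY1 and PDGFRB at 24 h were 0.09 (95% interval -0.36 to 0.54), -0.22 (95% interval -0.82 to 0.38) and 0.04 (95% interval -0.22 to 0.29). The intervals of the 7 members at 24 h reached from -0.82 for THY1 to 0.89 for ICAM1. Without the libraries with a high TMM factor THY1 was 0.09 at 24 h (adjusted p = 0.967).

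In the CRISPRa arm NT5E was lower and PDGFRA higher in the libraries described as VP64_A than in VP64_Ctrl. The titles name these groups the other way round, but GLIS3 was higher in every library described as VP64_A than in any described as VP64_Ctrl. Of 7 members, 1 was called at 0 h (NT5E, down) against 9.41% of all genes tested, 2 at 6 h (NT5E and THY1, down) against 3.76%, 2 at 12 h (NT5E down, PDGFRA up) against 4.31% and 1 at 24 h (PDGFRA, up) against 4.13%. The 9.41% at 0 h was 1033 of 10980 genes, and 491 of 11141 genes were called without VP64_Ctrl 0 h replicate 3. PDGFRA libraries at 12 h were at 31.9, 30.3 and 28.1 CPM in VP64_A and at 11.1, 9.85 and 6.54 in VP64_Ctrl, a log2 difference of 1.69 (SE 0.26, adjusted p = 4.2e-05). At 24 h they were at 26.1, 24 and 20.5 and 8.83, 9.4 and 5.11, a difference of 1.64 (SE 0.27, adjusted p = 1.1e-04). No library overlapped at either time, and both calls were kept without any one library, while the 24 h call was not made by limma on log2(TPM + 1) (0.93, adjusted p = 0.182). At 0 h PDGFRA differed by 0.55 (SE 0.22, adjusted p = 0.123), and by 0.80 (adjusted p = 0.0444) without VP64_Ctrl 0 h replicate 3, and at 6 h by 0.52 (SE 0.26, adjusted p = 0.381).

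NT5E was lower in VP64_A, with log2 differences of -0.76 at 0 h (adjusted p = 0.0124), -1.02 at 6 h (0.00127) and -0.77 at 12 h (0.0194), with libraries apart at each of these times. At 24 h the difference was -0.29 (95% interval -0.68 to 0.11), not called, although the 3 libraries of VP64_A, at 868, 737 and 807 CPM, still lay below those of VP64_Ctrl, at 1022, 986 and 931. The 6 h call for NT5E was kept without any one library, the 0 h call was lost without VP64_A_0h replicate 2 (log2 fold change -0.61, adjusted p = 0.0932), and the 12 h call without any one of VP64_A_12h replicate 2 or 3 or VP64_Ctrl_12h replicate 1 or 3 (log2 fold changes -0.75 to -0.60, adjusted p between 0.0679 and 0.157). THY1 at 6 h was lower in VP64_A, -0.82 (SE 0.24, adjusted p = 0.0496), with 842, 1072 and 1081 CPM against 1396, 1866 and 2035, a call lost without any one of VP64_A_6h replicate 1, 2 or 3 or VP64_Ctrl_6h replicate 2 or 3 (log2 fold changes -0.88 to -0.71, adjusted p between 0.106 and 0.219). On the TPM scale, limma called THY1 lower in VP64_A at all 4 times, with differences of -0.51, -0.71, -0.63 and -0.78 on the log2(TPM + 1) scale. The median of all genes on that scale was -0.33, 0.10, -0.05 and -0.25, and relative to it THY1 was -0.18, -0.81, -0.58 and -0.53. PDGFRB had point differences above 0 at each time, the largest at 12 h, 0.50 (SE 0.16, adjusted p = 0.0785), and passed the test at none. ICAM1 was -0.94 (95% interval -1.81 to -0.07) at 0 h, -0.55 (95% interval -1.02 to -0.09) at 6 h, where the groups did not overlap, and 0.32 (95% interval -0.16 to 0.80) at 24 h. It was called at none of these times with all libraries, and at 0 h was called without VP64_Ctrl_0h replicate 1 (-1.44, adjusted p = 0.0155). FAP was 0.34 (95% interval 0.05 to 0.63) at 0 h and 0.16 (95% interval -0.13 to 0.45) at 24 h, and ENG -0.04 (95% interval -0.35 to 0.28) and 0.02 (95% interval -0.30 to 0.34), called at neither time.

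Among the markers of other cell types, KRT14 was higher in VP64_A than in VP64_Ctrl and CSPG4 had a lower median with overlapping ranges. No test of either is given here. Of the 4 epithelial markers EPCAM was at 0 in all 48 libraries and CDH1 and KRT5 were at most 0.467 and 0.126 CPM, but KRT14, a keratin of basal epithelium, was at 16.7 to 80.2 CPM (median 61.2) in VP64_A, 2.84 to 11.4 (median 6.68) in VP64_Ctrl and at most 1.15 in the CRISPRko arm. Of the 3 mural markers DES and RGS5 were at most 0.580 and 2.30 CPM, and CSPG4, a pericyte proteoglycan, was at 69.3 to 175 CPM (median 141) in VP64_A against 170 to 366 (median 239) in VP64_Ctrl. The 6 fibroblast markers summed to 30985 to 46629 CPM in VP64_A and 9523 to 45322 in VP64_Ctrl. Their part in the PDGFRA, NT5E and THY1 differences was not tested.

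The dependence of the cytokine response on the guide was tested as an interaction, the change from 0 h in the GLIS3 guide cells minus that in their controls, with the CRISPRa groups named by their descriptions. With edgeR 0 of 7 members were called at 6, 12 or 24 h in CRISPRko cells, where 0.00912%, 0% and 0% of all genes were, and 0 of 7 in the CRISPRa arm, where 0.0911%, 0.264% and 0.209% were. At an unadjusted p under 0.05 the counts were 0, 1 and 0 in the CRISPRko arm (PDGFRB at 12 h) and 0, 1 and 2 in the CRISPRa arm (PDGFRA at 12 h, PDGFRA and ICAM1 at 24 h). DESeq2 and limma on log2(TPM + 1) called 0 in either arm. The interaction for PDGFRA was 1.14 (SE 0.34, adjusted p = 0.186) at 12 h and 1.09 (SE 0.35, adjusted p = 0.355) at 24 h in the CRISPRa arm, so a smaller fall in VP64_A than in VP64_Ctrl did not pass the test. The 12 h value was called when no genes were filtered (1.12, adjusted p = 0.025). For ICAM1 at 24 h it was 1.26 (SE 0.51, adjusted p = 0.586). In the CRISPRko arm the 24 h interactions of ICAM1, PDGFRA, NT5E and FAP were 0.25 (95% interval -0.64 to 1.14), 0.41 (95% interval -0.21 to 1.04), 0.13 (95% interval -0.51 to 0.76) and 0.22 (95% interval -0.17 to 0.61).

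**Figure D4:**
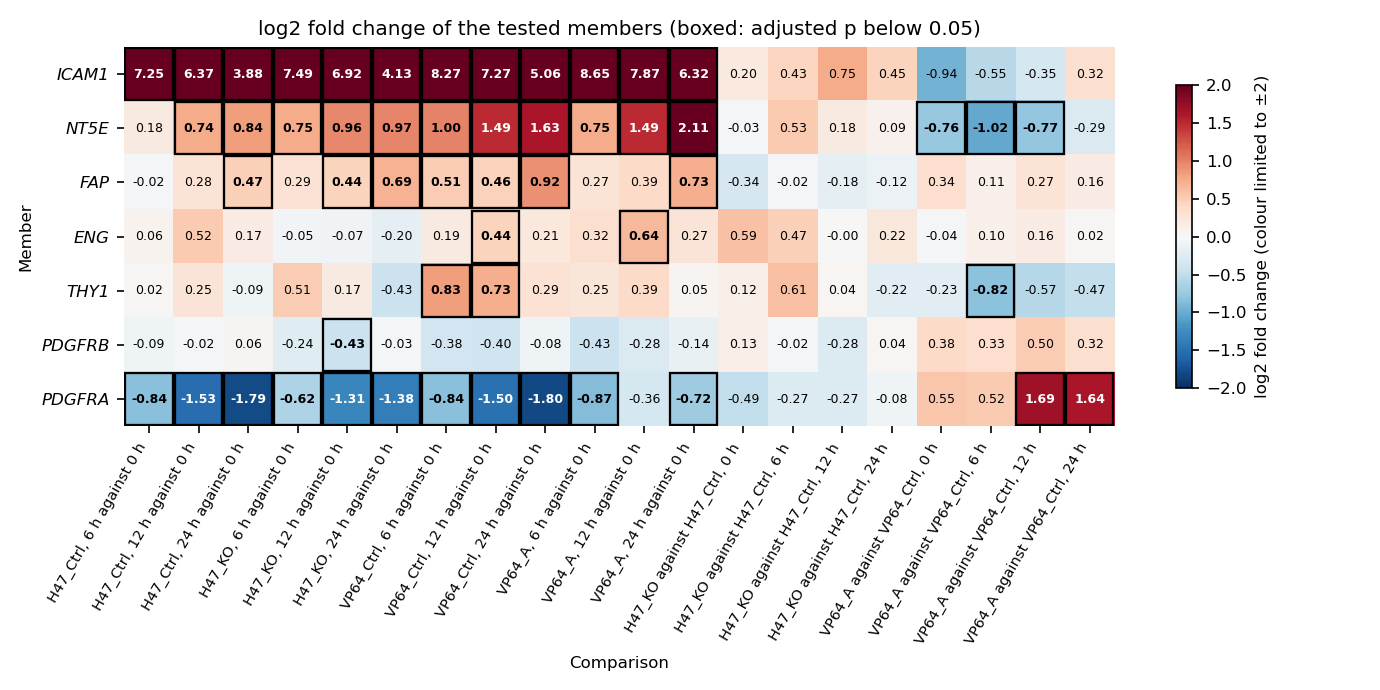
Heat map of log2 fold changes of the 7 tested genes in 20 comparisons, with times against 0 h in each group of cells and GLIS3 guide against control at each time, and the colour scale limited to ±2. Boxes mark an adjusted p under 0.05, and they fill the ICAM1 row for times, most of the PDGFRA and NT5E rows, and none of the H47_KO against H47_Ctrl columns.

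The partners of these surface genes were described through a list of 42 ligands, receptors, enzymes, integrins and binding partners, of which 31 were tested in CRISPRko cells and 33 in CRISPRa cells. In H47_Ctrl at 24 h against 0 h, 7 rose and 3 fell (median log2 fold change 0.11 against 0.01 over all genes tested, with 10.3% of all genes called). PDGFC, a ligand of PDGFRA, rose by 1.27 (SE 0.19, adjusted p = 6e-06), from 27 ± 4.21 to 66.5 ± 11.5 CPM (SD, n = 3), while its receptor fell. ADORA2A, a receptor for the adenosine that NT5E makes, went from 0 to 1 count in each library at 0 h to 14 to 44 at 24 h. TCF4, a helix-loop-helix partner of TWIST1, rose by 1.00 and MSN, which links PDPN to the actin cortex, by 0.92. The 3 that fell, named after their values were seen, were ITGA4 (the integrin subunit that binds VCAM1), ID1 (an inhibitor of helix-loop-helix factors) and EZR, a relative of MSN.

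In VP64_Ctrl at 24 h, 10 of 33 partners rose and 2 fell (median log2 fold change -0.04 against -0.0019 over all genes tested, with 16% of all genes called). The FAP relative DPP4 rose by 3.10 (SE 0.23, adjusted p = 1.87e-12), from 4.08 ± 0.412 to 35.8 ± 9.85 CPM, and the integrin subunit ITGB3, part of a receptor for THY1, by 2.54 (SE 0.40, adjusted p = 1.38e-05). ADORA2A was at 0 counts in the 3 libraries at 0 h and at 0 to 36 at 24 h. ID1 fell (-1.25), and ID2, named after its value was seen, fell as well. In the comparison of VP64_A with VP64_Ctrl, named by their descriptions, 2 of 33 partners were higher and 5 lower at 0 h (median log2 fold change -0.13 against -0.02 over all genes tested, with 9.41% of all genes called). DPP4 was 1.34 and ITGB1, the integrin β1 subunit, 1.18, and ID2 was -1.32 and ITGA4 -0.89. Without VP64_Ctrl 0 h replicate 3, ITGA4 was -0.63 (adjusted p = 0.053) and ITGB1 0.87 (adjusted p = 0.0446). The other 3 that were lower, named after their values were seen, were PDGFC, TCF4 and TCF12. At 24 h, 1 was higher, ADK, the kinase that clears adenosine, at 1.13 (SE 0.20, adjusted p = 3e-04), and 2 were lower, ITGA4 at -1.09 (SE 0.21, adjusted p = 0.0012) and TCF4 at -0.60 (SE 0.14, adjusted p = 0.0102), with a median log2 fold change -0.22 against -0.02 over all genes tested and 4.13% of all genes called. Between H47_KO and H47_Ctrl edgeR called 0 of 31 partners at 0 and at 24 h.

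Other stromal identity genes were described through a list of 24, of which 20 were tested in CRISPRko cells and 19 in CRISPRa cells. In H47_Ctrl at 24 h, 2 rose and 1 fell (median log2 fold change 0.33 against 0.01 over all genes tested, with 10.3% of all genes called). LRRC15, a surface protein of activated fibroblasts, rose by 4.42 (SE 0.26, adjusted p = 1.05e-14), from 6.24 ± 2.11 to 138 ± 5.99 CPM, PRRX1, a mesenchymal homeobox factor, rose by 0.78, and CD248, a stromal surface protein, fell (-1.07). In VP64_Ctrl at 24 h, 8 of 19 rose and 1, CD248, fell (median log2 fold change 0.51 against -0.0019 over all genes tested, with 16% of all genes called). LRRC15 rose by 3.87, fibronectin (FN1) by 1.86 and COL1A1 by 1.53, or by 1.17 (adjusted p = 0.0138) without VP64_Ctrl 0 h replicate 3, and CD248 changed by -1.39. LRRC15 was lower in VP64_A than in VP64_Ctrl at 0 h, -1.98 (SE 0.37, adjusted p = 4.79e-04), and at 24 h, -2.46 (SE 0.26, adjusted p = 6.27e-08). SPARC, a collagen-binding matrix protein, was higher at both times, by 1.70 and 1.17. In all 6 of 19 were higher and 3 lower at 0 h (median log2 fold change 0.33 against -0.02 over all genes tested, with 9.41% of all genes called), and 2 higher and 4 lower at 24 h (median log2 fold change -0.18 against -0.02 over all genes tested, with 4.13% of all genes called). COL1A1 and COL1A2 were higher in VP64_A at 0 h by 1.98 and 1.54, and by 1.63 and 1.21 without VP64_Ctrl 0 h replicate 3, and S100A4 and PRRX1 were lower at 24 h (-1.19 and -1.04). Without the libraries with a high TMM factor, each gene named here by the rule kept its call in these comparisons, except ITGA4 at 0 h. Where 5 or fewer genes of this list were called in a direction between VP64_A and VP64_Ctrl, the rest were named after their values were seen. These were CD248 and ZEB2 (lower at 0 h), DCN (lower at 24 h) and MME (higher at 24 h). Between H47_KO and H47_Ctrl, 0 were higher and 1 was lower at 0 h, DCN (decorin), at -1.82 (SE 0.23, adjusted p = 6.05e-05) (-1.63, adjusted p = 0.00287, without the libraries with a high TMM factor), with 12.4 ± 3.26 CPM in H47_KO and 43.5 ± 3.46 in H47_Ctrl. At 24 h edgeR called 0 of 20.

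The genes most like each member were found by Pearson's r over the 16 condition means of log2 CPM, each arm centred on its own mean, among 10691 genes tested in both arms. These values describe shared levels over conditions that also share libraries and depth. ICAM1 was most like CXCL3 (r = 0.993), a chemokine of neutrophils, and ST3GAL1 (r = 0.991), a sialyltransferase. FAP was most like ITGB3 (r = 0.963) and MMP2 (r = 0.944), an integrin subunit and a matrix metalloproteinase, and NT5E most like FCRLA (r = 0.945) and ELTD1 (r = 0.943). PDGFRA was most like ECI2 (r = 0.903) and SNX17 (r = 0.903), PDGFRB most like WFS1 (r = 0.923) and PGM1 (r = 0.902), and THY1 most like CMTM6 (r = 0.94) and ZNF384 (r = 0.924). ENG had the weakest pair, ATP6V0D1 (r = 0.882) and FXYD5 (r = 0.862).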

How the data were processed

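RNA-seq was made from 48 libraries of IL11mNG fibroblasts (TRIzol RNA, poly(A) selection, Nextera XT, NextSeq). The authors trimmed reads, removed ribosomal reads with SortMeRNA, aligned them with STAR (GRCh38), ran Salmon for quantification, and deposited estimated counts per gene, rounded here to whole numbers. The TPM values, also as deposited by the authors, correct for transcript length. The strand setting of the counting is not given in the sources used here.

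Groups came from the sample descriptions, since in the CRISPRa arm the titles name the opposite groups. The 10 genes and the lists were chosen with earlier results of these data known. Each arm (24 libraries, 8 groups) was fitted in edgeR 4.0.16 (R 4.3.3) with TMM scaling, filterByExpr (minimum count 10, minimum total 15), the quasi-likelihood test and Benjamini-Hochberg adjustment over all genes tested, with a call at an adjusted p under 0.05. Standard errors were the log2 fold change divided by the root of F, and 95% intervals were normal. The same script was tested on simulated counts. Alternatives were DESeq2 1.42.0, its size factors in edgeR, no filter, only the libraries compared, both arms in one fit, a replicate block, each library left out, and limma 3.58.1 with a pseudocount of 1 or of 0.1 added to TPM before the log2. The comparison of 24 with 6 h and the fit without the 3 libraries of high TMM factor were added after the data were seen. No libraries of a condition were identical. No pairing of samples by replicate number was shown (r of deviations -0.098 to 0.204), and weak correlations cannot exclude shared cultures.

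Named genes were all 10 members, GLIS3, up to 4 called genes of each list with the largest change at 24 h in the 2 control groups and between guides at 0 and 24 h, and the 2 genes most like each member. The 95% intervals include the spread between libraries, and limits from 0 counts cover counting error only.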

Additional observations from a re-analysis of the deposited data

How the results depend on the processing

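Calls of the 7 tested members, summed over times, were set against each alternative. Between H47_KO and H47_Ctrl the count of 0 became 1 with DESeq2, with no filter on low counts and with only the libraries compared (ICAM1 at 12 h each time), and 1 without the libraries with a high TMM factor (ENG at 0 h). In VP64_Ctrl the cytokine count of 15 became 9 without the library with a high TMM factor, and in VP64_A the count of 10 became 5 with limma on log2(TPM + 1) and 5 on log2(TPM + 0.1). The CRISPRa interaction count of 0 became 1 with no filter (PDGFRA at 12 h). The cause of these shifts was not tested. Leaving out each library in turn gave 0 to 0 between H47_KO and H47_Ctrl, 5 to 7 between VP64_A and VP64_Ctrl (6 with all libraries), 6 to 9 in H47_Ctrl (9), 10 to 12 in H47_KO (12), 8 to 11 in VP64_A (10), 9 to 16 in VP64_Ctrl (15) and 0 to 0 for both interactions.

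With limma on log2(TPM + 1) the sign turned for ENG at 12 h in VP64_Ctrl (-0.16), and for FAP there at 12 h (-0.15) and 6 h (-0.24). On log2(TPM + 0.1) these were -0.16 for ENG and -0.16 and -0.24 for FAP. The median of all genes on the log2(TPM + 1) scale was itself -0.65 at 6 h and -0.51 at 12 h, and relative to it FAP was 0.41 and 0.36 and ENG 0.35 at 12 h.

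With the replicate block the counts were 0, 5, 9, 11, 10 and 15 for H47_KO against H47_Ctrl, VP64_A against VP64_Ctrl, and the cytokines in H47_Ctrl, H47_KO, VP64_A and VP64_Ctrl, and 0 for each interaction. The block ended the calls of THY1 at 6 h between VP64_A and VP64_Ctrl and PDGFRA at 6 h in H47_KO. Since no pairing by replicate number was shown, this describes the fit only. Depth limits PDPN, VCAM1 and TWIST1, and the 3 to 39 counts of ICAM1 at 0 h limit the precision of its fold changes.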
